A study of Rattus norvegicus with 12 samples.

Results

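The miRNAs described here come from imprinted loci of the rat genome other than the Dlk1-Dio3 cluster. They were chosen by locus, as every listed arm of a fixed set of hairpins next to or inside imprinted genes. The choice was made with earlier results of these data known. Of 9 mature miRNAs on that list, 8 had a row among the 753 mature miRNAs counted in each library, and the remaining one is not analysed here. The 8 are both arms of miR-483 (inside Igf2), miR-675 (inside H19), and miR-296 and miR-298 (beside Gnas). The study asked how an acute ethanol challenge alters hippocampal miRNA, and small RNA (20 to 30 nt) from single rats was sequenced. All rats were adult male Sprague Dawley rats aged P70 to P80. The ethanol group (n = 8) was injected with 4 g/kg ethanol and the vehicle group (n = 4) with vehicle, and tissue was taken 3 h later. The remaining vehicle rats of the study are not analysed here. The labels name the right hippocampus and the study's methods the dorsal hippocampus, taken as whole tissue, so a library holds RNA of all cell types in the dissection. Each library came from a separate rat, which is called by its group and number.

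A miRNA is cut from a hairpin in a longer transcript, and either strand of the hairpin stem (the 5p or the 3p arm) can be loaded into the silencing complex, where bases 2 to 8, the seed, pair with target mRNA. Imprinted genes are expressed mainly from the chromosome inherited from 1 parent. Igf2 encodes a growth factor that, in the adult brain, is made mainly by the choroid plexus and the meninges, H19 is a non-coding RNA that is abundant in the embryo and low in most adult tissue, and Gnas encodes the stimulatory G protein alpha subunit and several overlapping transcripts. Htr2c, the gene that holds miR-448, encodes a serotonin receptor that is abundant in choroid plexus, and rno-miR-448-3p serves below as a measure of choroid plexus RNA in each dissection.

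The 8 mature sequences are printed because they show that the members, which were chosen by locus, share no seed. They were taken from RefSeq (rat assembly GRCr8) and are written 5′ to 3′ with the seed in capitals.
rno-miR-483-3p: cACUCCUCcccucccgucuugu
rno-miR-483-5p: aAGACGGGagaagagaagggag
rno-miR-675-3p: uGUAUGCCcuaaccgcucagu
rno-miR-675-5p: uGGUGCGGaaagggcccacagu
rno-miR-296-3p: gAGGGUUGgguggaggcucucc
rno-miR-296-5p: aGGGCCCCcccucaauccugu
rno-miR-298-3p: aGGAACUAgccuucucucugcu
rno-miR-298-5p: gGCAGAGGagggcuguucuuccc
No seed occurred in more than 1 member, and none of the 693 rat mature miRNAs in the RefSeq table shared a seed with a member. With bases 2 to 7 alone, rno-miR-483-3p matched 1 other miRNA, rno-miR-3544. The members were rich in G and C, from 50% of bases in rno-miR-298-3p to 68.2% in rno-miR-296-3p, against a median of 47.8% over the 693. The arms of miR-483 were skewed in opposite directions, with A or G at 95.5% of the bases of rno-miR-483-5p and at 13.6% of those of rno-miR-483-3p.

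In GRCr8, which is not the build of the submitters' processing notes (rn5), the miR-483 hairpin lies at chr1:207247859-207247931 within Igf2 and the miR-675 hairpin at chr1:207161752-207161835 within H19, both on the minus strand. The miR-298 hairpin (chr3:183470522-183470603) and the miR-296 hairpin (chr3:183470069-183470146) lie on the minus strand of another chromosome. Only 375 bases separate these 2 hairpins. No gene in the RefSeq table overlapped either, and the nearest protein-coding gene was Gnas.

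Library totals ran from 1960702 to 4917929 reads and did not differ detectably between the groups (exact permutation p = 0.109, two-sided, n = 4 and 8). Levels are given as CPM, counts per 1000000 reads of the library total after TMM scaling. A count of 3, used as the detection floor, equalled 0.610 to 1.53 counts per 1000000 reads by library, before TMM scaling. Every deposited value of the 8 members was a whole number, although 16.6% to 19.8% of all values per library were fractional. The tissue check rested on marker lists: all 6 neuronal markers (miR-124-3p, miR-128-3p, miR-132-3p, miR-138-5p and both arms of miR-9a) were read in every library, with a summed level of 31525 to 40065 CPM. Of 6 choroid plexus markers (both arms of miR-448, miR-204 and miR-211), 5 were read in every library, with a summed level of 16524 to 70907 CPM, and miR-211-3p was at 0 throughout. Choroid plexus RNA, red blood cell miRNAs (2 of 3 markers listed, 53.8 to 290 CPM) and muscle miRNAs (5 of 5 listed, 112 to 1765 CPM) therefore varied more between rats than neuronal miRNAs did. Libraries were sequenced in sets of 8, but the labels do not say which rat was in which set, and no value within a set can be given.

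The members were scarce, and their levels differed widely, also between hairpins and arms of the same locus. rno-miR-298-5p was read 2262 times in all and ranked 214 of 753 by mean CPM. It was followed by rno-miR-483-3p (264 reads, rank 361), rno-miR-296-5p (222 reads, rank 367), rno-miR-298-3p (166 reads, rank 380), rno-miR-483-5p (54 reads, rank 436) and rno-miR-296-3p (24 reads, rank 484). The Igf2 and Gnas loci were therefore represented by reads of both arms, whereas the H19 locus gave none: rno-miR-675-3p and rno-miR-675-5p were at 0 in 12 of 12 libraries. A count of 0 in the 36645216 reads of all libraries allows up to 0.0819 CPM for each of them, by counting error only. Mature miRNAs are of nearly equal length (21 to 23 bases for the 8), so reads were compared without scaling for length. The order is one of reads, and whether different sequences were recovered equally well was not tested. Neighbours in this order were compared within libraries by a two-sided exact sign-flip permutation test over 4096 sign patterns, adjusted over 5 comparisons. rno-miR-298-5p exceeded rno-miR-483-3p in 12 of 12 libraries (63.3 ± 12.2 against 7.57 ± 3.67 CPM, SD, n = 12, adjusted p = 0.00122). rno-miR-483-3p and rno-miR-296-5p could not be ordered, since the former was higher in 8 of 12 libraries (7.57 ± 3.67 against 6.44 ± 2.09 CPM, adjusted p = 0.347). The next steps down ran from rno-miR-296-5p to rno-miR-298-3p (10 of 12 libraries, adjusted p = 0.0122), to rno-miR-483-5p (12 of 12, adjusted p = 0.00122) and to rno-miR-296-3p (9 of 12, adjusted p = 0.00977). By the same test, each of these mean differences within libraries was distinguishable from 0. The order was taken from the mean levels of the same libraries.

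**Figure D1:**
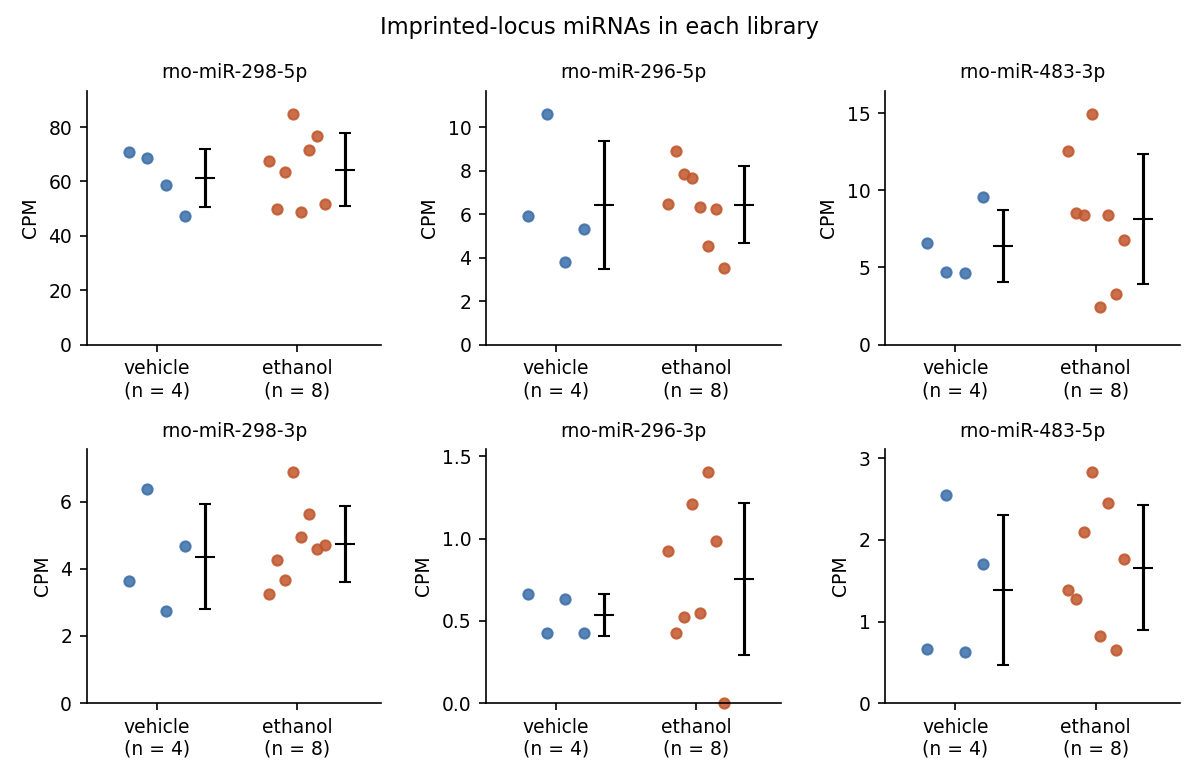
Level of the 6 detected members in CPM (linear axes from 0, each with its own scale), 1 point per rat, vehicle (n = 4, blue) and ethanol (n = 8, orange); the horizontal tick is the mean and the bar the SD. The groups overlap in every panel, and rno-miR-296-3p lies near or below the level of 3 counts throughout.

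The arms of each hairpin were read unequally, which is shown by the hairpins with the more often read arm in capitals (RefSeq, GRCr8). Whether both arms of a hairpin were recovered equally well was not tested.
Mir483: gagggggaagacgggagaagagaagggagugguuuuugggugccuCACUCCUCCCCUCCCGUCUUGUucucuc
Mir298: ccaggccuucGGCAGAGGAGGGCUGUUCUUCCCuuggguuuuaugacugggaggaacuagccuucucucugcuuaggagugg
Mir296: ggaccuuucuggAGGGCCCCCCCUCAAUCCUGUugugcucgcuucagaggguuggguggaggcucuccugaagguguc
miR-483 was read mainly from its 3p arm, at 83.0% of 318 reads (95% Wilson interval 78.5% to 86.7%). This interval and the next ones pool the reads of all rats and cover counting error only. Both hairpins beside Gnas were read mainly from the 5p arm, miR-298 at 93.2% (92.1% to 94.1%) and miR-296 at 90.2% (85.9% to 93.4%). The same arm led in 12 of 12 libraries for each hairpin. The lowest miR-483 share, 64.7%, was that of vehicle rat 10, with 11 reads of the 3p arm and 6 of the 5p arm, and the other 11 libraries lay between 75.0% and 90.9%. Ethanol did not shift arm use detectably, with mean shares in vehicle and ethanol rats of 82.1% and 82.0% for miR-483 (exact permutation p = 0.986), 93.3% and 93.0% for miR-298 (p = 0.832) and 91.1% and 89.7% for miR-296 (p = 0.741, n = 4 and 8 throughout).

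**Figure D2:**
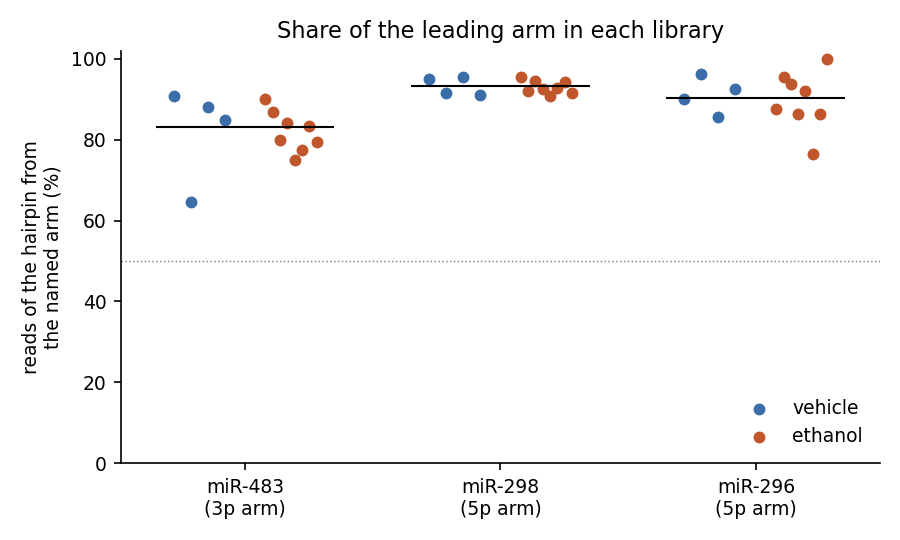
Share of each hairpin's reads that came from its leading arm (%, y axis), 1 point per library, for miR-483 (3p), miR-298 (5p) and miR-296 (5p), vehicle in blue and ethanol in orange. The black line is the share over all libraries (83.0%, 93.2% and 90.2%), the dotted line marks equal reads of both arms, and every library lies above it.

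rno-miR-483-3p, the main product of the Igf2 hairpin, was 6.60, 4.68, 4.63 and 9.57 CPM in vehicle rats 9, 10, 19 and 20. Ethanol rats ran from 2.47 CPM (rat 15) to 15.0 CPM (rat 8), with a median of 8.41 CPM. The ethanol libraries thus enclosed the vehicle libraries, with 2 above and 2 below all of them. The means were 6.37 ± 2.33 CPM (SD, n = 4) in vehicle and 8.16 ± 4.20 CPM (SD, n = 8) in ethanol rats, a difference within the spread (exact permutation p = 0.459). rno-miR-483-5p was at 0.660, 2.55, 0.631 and 1.70 CPM in the same vehicle rats. In ethanol rats it ran from 0.656 to 2.83 CPM, with a median of 1.58 CPM, so the groups overlapped here too (exact permutation p = 0.582, n = 4 and 8). These values rest on 2 to 8 reads per library.

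The better-read miRNAs beside Gnas varied less between rats. rno-miR-298-5p was 70.7, 68.5, 58.7 and 47.2 CPM in vehicle rats 9, 10, 19 and 20, and 48.9 to 84.9 CPM in ethanol rats, with a median of 65.5 CPM. Its highest level was 1.80 times its lowest, against 3.02 times for rno-miR-296-5p and 6.05 times for rno-miR-483-3p. The group means, 61.3 ± 10.7 CPM (SD, n = 4) and 64.3 ± 13.4 CPM (SD, n = 8), did not differ beyond the spread (exact permutation p = 0.697). rno-miR-298-3p, the minor arm, was 3.63, 6.38, 2.73 and 4.68 CPM in the vehicle rats and 3.24 to 6.87 CPM in ethanol rats, median 4.65 CPM (exact permutation p = 0.624, n = 4 and 8). rno-miR-296-5p was 5.94, 10.6, 3.78 and 5.32 CPM in vehicle rats, of which rat 10 was the highest of all 12. Ethanol rats lay between 3.52 and 8.93 CPM, median 6.40 CPM, and the group means of 6.42 ± 2.95 (SD, n = 4) and 6.45 ± 1.77 CPM (SD, n = 8) were nearly equal (exact permutation p = 0.982). rno-miR-296-3p had 0 to 4 reads per library and was at 0 in ethanol rat 24. It was 0.426 to 0.660 CPM in vehicle and 0 to 1.40 CPM in ethanol rats, so a difference was not detectable at this depth (exact permutation p = 0.394, n = 4 and 8).

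Variation between rats was compared with counting error as a chi-square divided by its degrees of freedom, which is near 1 where counting error alone is present. It was 7.43 for rno-miR-298-5p, 5.35 for rno-miR-483-3p and 2.07 for rno-miR-296-5p. It was 1.26 for rno-miR-483-5p, 0.980 for rno-miR-298-3p and 0.679 for rno-miR-296-3p, so the rat-to-rat spread of the minor arms was about that of read counting. The value also rises with the number of reads, so it does not rank the members by variation between rats. For the scarce minor arms it could miss such variation. Although miR-298 and miR-296 are neighbours, their 5p reads were not in a fixed proportion: rno-miR-298-5p gave 5.57 to 15.7 reads per read of rno-miR-296-5p, with a median of 10.7. Across the 12 libraries the log2 CPM of the 4 members that passed the filter on low counts correlated weakly with each other, with Pearson's r from 0.07 to 0.36 over 6 pairs, as a description over libraries that share scaling and depth.

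The effect of ethanol was tested with edgeR's quasi-likelihood model over the 420 miRNAs that had at least 10 reads in at least 3 libraries. Of the 8 members, 4 passed this filter (rno-miR-483-3p, rno-miR-296-5p and both arms of miR-298). The model gave 0 members an adjusted p under 0.05 and 0 an unadjusted p under 0.05. Over all 420, 0% had an adjusted p under 0.05 (Benjamini-Hochberg), 2.38% had an unadjusted p under 0.05 and were lower after ethanol, and 1.67% were higher. DESeq2's Wald test gave 1 adjusted call, the muscle marker rno-miR-133b-3p, which is no member. The log2 fold change of rno-miR-483-3p was 0.28 (SE 0.41, 95% interval −0.59 to 1.16, edgeR adjusted p = 0.971). That of rno-miR-298-3p was 0.18 (SE 0.24, interval −0.35 to 0.71, adjusted p = 0.971), that of rno-miR-298-5p was 0.07 (SE 0.17, interval −0.29 to 0.44, adjusted p = 0.982) and that of rno-miR-296-5p was 0.05 (SE 0.29, interval −0.56 to 0.67, adjusted p = 0.997). The intervals leave room for a change of 2.24-fold up or to 0.662-fold in rno-miR-483-3p but, in rno-miR-298-5p, only for 1.35-fold up or to 0.817-fold. With log2 library total as a covariate, 3 of the 4 estimates turned below 0 (edgeR adjusted p = 0.995 for each). The summed marker levels of the groups overlapped: muscle miRNAs were 128 to 1765 CPM in vehicle and 112 to 1712 CPM in ethanol rats (exact permutation p = 0.0545, n = 4 and 8), and p was 0.267 for neuronal, 0.897 for choroid plexus and 0.923 for red blood cell miRNAs in the same exact permutation test. When the edgeR fit was adjusted for the mean level of choroid plexus markers, all 4 estimates stayed above 0. They ran from 0.03 (rno-miR-296-5p, adjusted p = 0.998) to 0.37 (rno-miR-483-3p, adjusted p = 0.938). The part of neuronal, muscle and red blood cell miRNAs in the members' values was not tested.

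**Figure D3:**
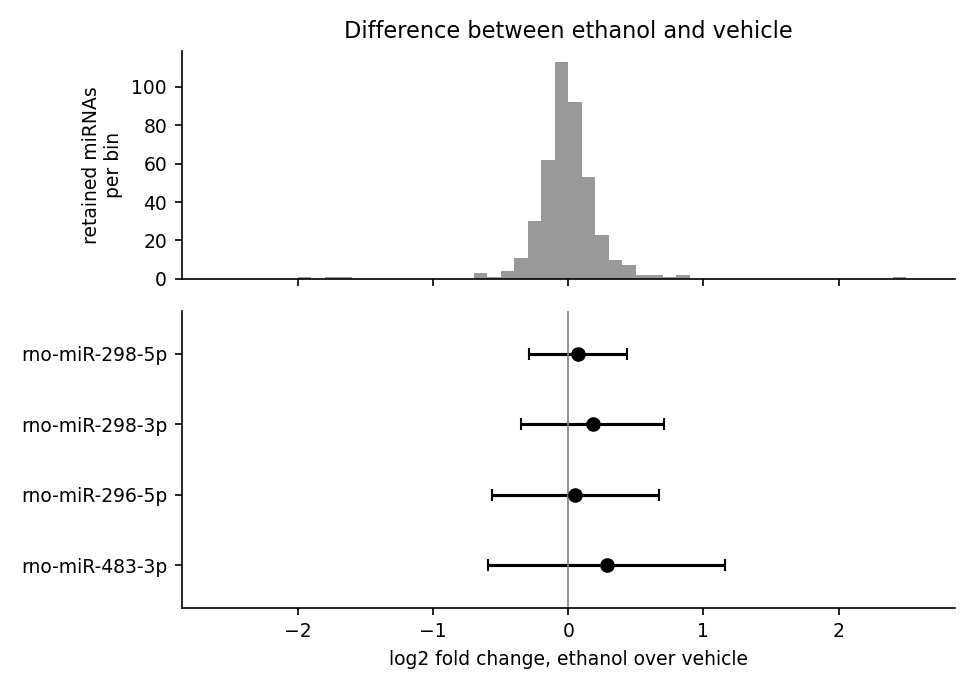
Top, log2 fold change of ethanol over vehicle (x axis) for the 420 miRNAs tested, as the number of miRNAs per bin; bottom, the 4 members that passed the filter, with the estimate as a point and the 95% interval as a bar. Every interval crosses 0, and the widest is that of rno-miR-483-3p (−0.59 to 1.16).

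The Dlk1-Dio3 miRNAs, which are read from the maternal copy of the largest imprinted miRNA cluster, were far more abundant. Of 89 listed arms, 72 passed the filter. Their summed level was 49612 to 62328 CPM against 64.0 to 118 CPM for the 8 members, a ratio of 424 to 946 by library. The Dlk1-Dio3 list held no adjusted call either: 0 of 72 passed in edgeR, 1 was lower and 3 were higher at an unadjusted p under 0.05, and the median log2 fold change was −0.01, beside 0.13 for the 4 members and −0.02 for all 420.

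The relation of miR-483 to choroid plexus RNA was examined because Igf2 and Htr2c are both active in that tissue. rno-miR-448-3p was 751, 463, 973 and 1013 CPM in vehicle rats 9, 10, 19 and 20, and 272 (rat 3) to 1431 CPM (rat 8) in ethanol rats, with a median of 760 CPM. It did not differ between the groups (800 ± 252 against 768 ± 420 CPM, SD, n = 4 and 8, exact permutation p = 0.899). In bulk tissue, fewer choroid plexus cells and less of this RNA per cell cannot be told apart. Over all 12 libraries the sum of both miR-483 arms was not related to it past the threshold. Pearson's r of log2(CPM + 1) was 0.47 (permutation p = 0.119, adjusted p = 0.417 over 7 measures) and Spearman's rho 0.49 (p = 0.108, adjusted p = 0.380). For rno-miR-483-3p alone, r was 0.48 (permutation p = 0.113, adjusted p = 0.417) and rho 0.50. The other members gave r from −0.21 (rno-miR-296-5p) to 0.36 (rno-miR-483-5p), and 0.07 for rno-miR-298-5p.

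That value moved with single libraries, most of all with ethanol rat 3. This rat had the lowest rno-miR-448-3p of all (272 CPM, 587 reads) and the second highest rno-miR-483-3p (12.5 CPM, 27 reads, 95% Poisson interval 8.24 to 18.2 CPM). Per 1000 reads of rno-miR-448-3p it had 46.0 reads of rno-miR-483-3p, whereas the other 11 libraries had 4.75 to 11.3. Without ethanol rat 3, r for the miR-483 sum was 0.83 (n = 11, permutation p = 0.00159, adjusted p = 0.00556 over 7 measures), rho was 0.84 (p = 0.00262, adjusted p = 0.00917), and r for rno-miR-483-3p was 0.88 (adjusted p = 0.00189). Leaving out each rat in turn was planned, but this rat was singled out after its values were seen, so these p-values are too favourable. Over the 12 leave-one-out sets r for the sum ran from 0.26, without ethanol rat 15, to 0.83, and it was 0.33 without ethanol rat 8. Without the 2 libraries farthest from the median rno-miR-448-3p, which were ethanol rats 3 and 8, r was 0.78 (n = 10, permutation p = 0.00852). With all 8 ethanol rats r was 0.55 (exact permutation p = 0.157), and with the 7 left after dropping rat 3 it was 0.96 (exact permutation p = 0.00119).

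The libraries were not evenly spread in rno-miR-448-3p. The widest step, from 463 to 744 CPM, took 28.5% of the log2 range and left 4 libraries below and 8 above it, and rat 3 was among the 4. Within the 8 above, r for the miR-483 sum was 0.61 and rho 0.67, which did not pass the threshold (exact permutation p = 0.102 and 0.0831). The 4 below the step were too few for a value of their own. The minor arm, rno-miR-483-5p, gave r of 0.41 over the 11 libraries without rat 3 (adjusted permutation p = 0.493). In all 8 ethanol rats its r was 0.75 (exact permutation p = 0.0390), on 2 to 7 reads per library. This p was not adjusted and was the smallest of the 7 measures. The others gave p of 0.116 to 0.937 by the same test. Without rat 3, r for rno-miR-483-5p in ethanol rats was 0.84 (exact permutation p = 0.0173, adjusted p = 0.0403 over 7 measures). Rat 3 was dropped after its values were seen, so the p-values without it are too favourable here too. The miR-296 and miR-298 arms showed no relation past the threshold over the same 11 libraries, with r of 0.18 for rno-miR-298-5p, −0.22 for rno-miR-296-5p, −0.01 for rno-miR-298-3p and 0.25 for rno-miR-296-3p (adjusted permutation p of 0.704 to 0.967).

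**Figure D4:**
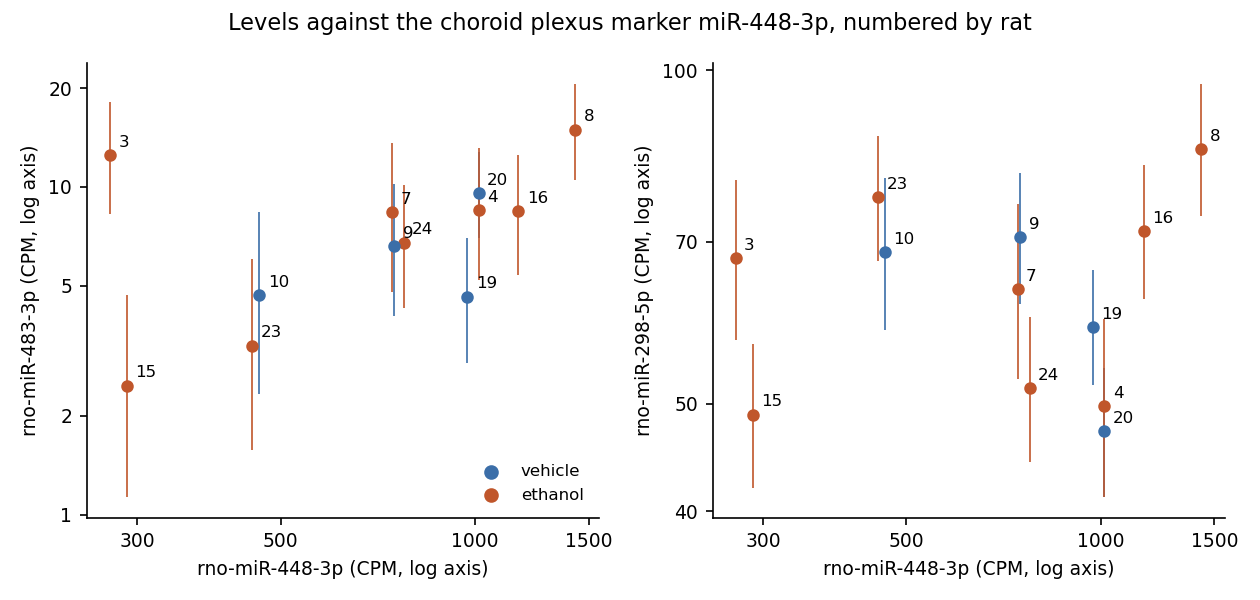
rno-miR-483-3p (left) and rno-miR-298-5p (right) against the choroid plexus marker rno-miR-448-3p in each library, all in CPM on log axes, numbered by rat, vehicle in blue and ethanol in orange, with 95% Poisson intervals as bars. On the left ethanol rat 3 lies apart (12.5 CPM at 272 CPM of rno-miR-448-3p), and vehicle rat 19 is low for its rno-miR-448-3p (4.63 CPM at 973 CPM). Over all 12 libraries r on the left was 0.48 (permutation test, adjusted p = 0.417). On the right no slope is seen (r = 0.07).

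Ethanol rat 3 was low in all 5 choroid plexus markers that were read. rno-miR-448-3p, rno-miR-204-5p (13662 CPM) and rno-miR-211-5p (2582 CPM) were the lowest of 12, whereas the scarce arms rno-miR-448-5p (6.95 CPM) and rno-miR-204-3p (1.85 CPM) were each 10th from the top. Its summed list, most of which was rno-miR-204-5p, was 16524 CPM, also the lowest (next 17584 CPM). Its red blood cell miRNAs, 290 CPM, were the highest of 12, its neuronal list was 9th and its muscle list 6th from the top. The part of any of these in its miR-483 level was not tested. The minor arm did not stand out in this rat, with 3 reads of rno-miR-483-5p (1.39 CPM, 7th from the top).

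Among the other 419 miRNAs that passed the filter, those whose log2 CPM followed a member most closely over the 12 libraries are given as a description, without a test. For rno-miR-483-3p they were rno-miR-182 (Pearson's r = 0.90), rno-miR-28-3p (0.88) and rno-miR-130a-3p (0.84), whose lowest level in any library was 152 CPM, and in ethanol rat 3 they ranked 5th, 2nd and 4th. For rno-miR-296-5p they were rno-miR-320-3p (0.73), rno-let-7f-5p (0.70) and rno-miR-423-5p (0.67). For rno-miR-298-5p they were rno-miR-19b-3p (0.64), rno-miR-30c-1-3p (0.63) and rno-miR-671 (0.59). For rno-miR-298-3p the closest was rno-miR-92b-5p (0.83), itself only 0.421 to 4.04 CPM, followed by rno-miR-760-3p (0.60) and rno-miR-344b-3p (0.59). No miRNA appeared in more than 1 of these lists.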

How the data were processed

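For each of 12 rats the authors deposited expected counts (estimated counts) of reads per mature miRNA, not scaled to library size and with unread miRNAs listed at 0. The submitters' processing notes name cutadapt, Partek and build rn5. Versions and the counting method are not given in the sources used here. Single rats' libraries were the replicates, and all 66 library pairs differed beyond sampling noise.

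Counts were rounded to whole numbers. The study's cutoff, which it set for more rats, was applied to the 12 libraries. Any miRNA under 10 reads in at least 10 libraries was removed, and 420 of 753 were retained. edgeR 4.0.16 (R 4.3.3) with TMM factors compared ethanol with vehicle by the quasi-likelihood test with group as the only term, and p-values were adjusted over the retained miRNAs (Benjamini-Hochberg). The fit was tested on simulated data. For single values, exact permutation tests (two-sided) took every split of the libraries into 4 and 8, whose smallest p is 0.00202. Correlations used log2(CPM + 1) for r, 100000 permutations, and exact enumeration for under 10 libraries. Poisson and Wilson intervals (95%) and the floor of 3 counts cover counting error only, since no molecular identifiers were used.

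The miRNAs named were all members, the marker lists, miRNAs sharing a seed, and for each retained member the 3 most correlated miRNAs. Members, lists and tests were chosen with earlier results of these data known. Alternatives covered normalization, filter, tool (DESeq2 1.42.0, limma 3.58.1), rounding, depth, choroid plexus content and each rat left out. All 8 members matched RefSeq sequences (GRCr8), as did 688 of the 753 names. No replicate numbers are shared between groups.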

Additional observations from a re-analysis of the deposited data

Results flagged for a closer look

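The number of rno-miR-483-3p reads per 1000 rno-miR-448-3p reads was 46.0 in ethanol rat 3, far from the other 7 ethanol rats (7.21 to 11.3), and the distance to the nearest of them was 0.895 of the range over ethanol rats. It was the only library to stand apart by Dixon's test among 30 groups of values tested, where chance gives about 1 in 20, or 1.5 groups.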

How the results depend on the processing

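No member's test crossed the threshold under any alternative fit run, with adjusted p from 0.868 to 1.00 for the 4 members in the fits. With log2 library total as a covariate the log2 fold change turned to −0.0158 for rno-miR-483-3p, −0.28 for rno-miR-296-5p and −0.0334 for rno-miR-298-5p. Leaving out each rat moved it from −0.15 to 0.35 for rno-miR-296-5p (below 0 without vehicle rat 19 or ethanol rat 4, where it was −0.03), from −0.0102 to 0.373 for rno-miR-298-3p (below 0 without vehicle rat 19), from 0.00 to 0.16 for rno-miR-298-5p and from 0.09 to 0.62 for rno-miR-483-3p. The cause was not tested. Over all miRNAs the adjusted calls were 1 with DESeq2's Wald test and 0 to 3 with each rat left out (3 without ethanol rat 16, the muscle markers rno-miR-133a-3p, rno-miR-133b-3p and rno-miR-1b). The correlation of the miR-483 sum with rno-miR-448-3p, 0.47, was 0.26 (without ethanol rat 15) to 0.83 (without ethanol rat 3) with each rat left out and 0.78 without the 2 libraries farthest from the median. It was 0.88 for rno-miR-483-3p alone without ethanol rat 3, 0.96 in ethanol rats without rat 3 and 0.61 in the 8 libraries above the widest step, which were chosen after seeing the data. Depth limits rno-miR-296-3p and rno-miR-483-5p, at 0 to 8 reads per library. No paired analysis was possible because the groups share no replicate numbers.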
